A study of Mus musculus with 19 samples.

Results

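The contractile machinery of muscle was followed through the mouse prostate in 35 genes, taken as a list by name. They were 27 smooth muscle genes, 2 cytoplasmic actins (Actb and Actg1) and 6 genes of striated muscle (Acta1, Ckm, Myl1, Myh4, Tnnt3 and Actn2), of the 18193 genes that a probe set with a single symbol stood for. The arrays held RNA of the dorsolateral prostate (DLP) and the ventral prostate (VP) of C57BL/6J mice, 1 sample per array. Mice were 8 weeks old at the start and were fed a high fat diet (HFD) or a control diet without restriction for 12 weeks, with 5 mice per diet. The 19 arrays were 4 of HFD DLP, 5 of control DLP, 5 of HFD VP and 5 of control VP. Arrays are not tied to single mice by the labels, and p-values below therefore cover only the scatter among these samples, part of which may be technical.

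Mouse prostatic ducts are wrapped in a sheath of smooth muscle that squeezes secretion into the urethra. In smooth muscle, calcium-activated myosin light chain kinase phosphorylates the regulatory light chain, which lets smooth muscle myosin pull on actin filaments, and a myosin phosphatase reverses this. Calponin, caldesmon and tropomyosin lie along the filaments, desmin and synemin form intermediate filaments, vinculin and filamin anchor actin at the membrane, and serum response factor with its coactivator myocardin drives transcription of many of these genes through a DNA element called the CArG box. Skeletal muscle builds its sarcomeres from other isoforms, and cytoplasmic actins are made by nearly all cells, so the 3 groups are kept apart.

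The promoters of 5 members are shown because serum response factor binds CArG boxes and these members fall on different sides of the lobe comparison below. Sequences are RefSeq's for GRCm38.p6, 5′ to 3′ on the strand of the gene, with each CArG box in capitals. The stretches lie at chr2:156775258-156775357 (plus strand) for Myl9, chr10:79988499-79988598 (plus strand) for Cnn2, chr14:20929148-20929225 (plus strand) for Vcl, chr11:120348531-120348630 (minus strand) for Actg1 and chr17:46556215-46556244 (minus strand) for Srf.
Myl9: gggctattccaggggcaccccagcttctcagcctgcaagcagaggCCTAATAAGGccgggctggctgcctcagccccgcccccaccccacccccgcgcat
Cnn2: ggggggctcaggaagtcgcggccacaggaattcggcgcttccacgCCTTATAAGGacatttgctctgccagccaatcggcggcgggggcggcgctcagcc
Vcl: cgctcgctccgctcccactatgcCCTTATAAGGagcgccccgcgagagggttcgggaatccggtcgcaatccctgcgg
Actg1: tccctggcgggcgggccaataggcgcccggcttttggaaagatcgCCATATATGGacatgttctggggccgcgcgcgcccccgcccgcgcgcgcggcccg
Srf: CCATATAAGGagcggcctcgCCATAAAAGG
The box begins 161 bases before the start site of Myl9, 56 before that of Cnn2, 227 before that of Vcl and 90 before that of Actg1. The Srf window, the promoter of the factor itself, holds 2 boxes that begin 82 and 62 bases before the start site.

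Promoter windows of 250 bases before to 50 bases after the start site were found for 29 of the 35 members by symbol, and Actb, Actg2, Myh11, Myocd, Tagln and Tnnt3 had none in the table. A CArG box on either strand was present in 8 of the 29, or 27.6%, against 1.81% of the 27025 genes with a window. The 8 were the smooth muscle genes Myl9, Cnn2, Myl6, Vcl and Srf, the cytoplasmic actin Actg1 and the striated genes Acta1 and Myh4. A match is a description of these letters and not a measured binding site, and elements outside the window were not searched.

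All levels are on a log2 scale made from the deposited log values, whose base was taken as 10, and they depend on the rank of a probe set on its array. A gene was tested when its probe set lay above the array median, 1.85 on this scale, on at least 4 arrays. This held for 31 of the 35 members, among 11728 genes tested: all 27 smooth muscle genes, both cytoplasmic actins, and Acta1 and Ckm of the striated genes. Of these, 29 lay above the median on all 19 arrays, Ckm on 9 and Kcnmb1 on 6. Because values of different probe sets are not on a common footing, no gene's level is set against another's. RNA of a whole lobe was measured, so fewer cells of a type and less RNA per cell cannot be told apart.

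Some arrays stood apart by genes of other tissues. The seminal vesicle genes Svs4 and Svs5, 2 of 5 markers that could be tested, lay on average 4.14 above their mean over all arrays on HFD VP 2 and 2.56 above it on HFD DLP 1, and between -1.02 and 1.01 on the other 17. Nerve genes (7 of 7 tested) averaged 1.53 to 2.84 above their mean on control DLP 2, 4 and 5, and between -1.04 and 0.64 on the other 16. The 27 smooth muscle genes averaged 0.22 to 0.31 on HFD DLP, 0.03 to 0.16 on control DLP, -0.31 to 0.10 on HFD VP and -0.38 to 0.00 on control VP, relative to each gene's mean over all arrays. VP arrays were the more scattered, with a median standard deviation of a smooth muscle gene of 0.219 in HFD VP and 0.198 in control VP, against 0.108 in HFD DLP and 0.110 in control DLP.

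Between the lobes, most smooth muscle genes were higher in DLP. On the control diet 16 of the 27 were higher and 4 lower in DLP at limma's adjusted p under 0.05, against 28.2% higher and 26.8% lower among all genes tested (55.0% in either direction). On the HFD 14 were higher and 4 lower, against 26.8% and 26.1% of all genes (52.9% in either direction). The median difference of the 27 was 0.36 on the control diet and 0.40 on the HFD, while that of all genes was 0.00 on both, and on each diet 19 of the 27 differences were positive, against 50.3% of all genes. The DLP and VP arrays did not overlap for 11 higher and 3 lower members on the control diet, where 20.2% and 19.1% of all genes were so separated, and for 13 and 3 on the HFD, where the shares were 23.0% and 21.5%.

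The HFD and control diet comparisons used different arrays, so the lobe difference was measured anew on each diet. The calls on both diets shared 1 spread per gene from the same fit, so they are not independent of each other. All 18 members called on the HFD were also called on the control diet, in the same direction. Over all genes, 5119 were called on both diets, of 6204 called on the HFD and 6451 on the control diet. On the probe sets used, Synpo2, the actin-bundling synaptopodin 2, and Srf were called on the control diet alone. This depended on the probe set for Srf, which was called on both diets with the mean of probe sets. The other Synpo2 probe sets differed by 0.90, 1.71 and 0.75 on the HFD, against 0.40 on the one used. The sign of the difference was the same on both diets for 27 of 27 members, against 86% of all genes.

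**Figure D1:**
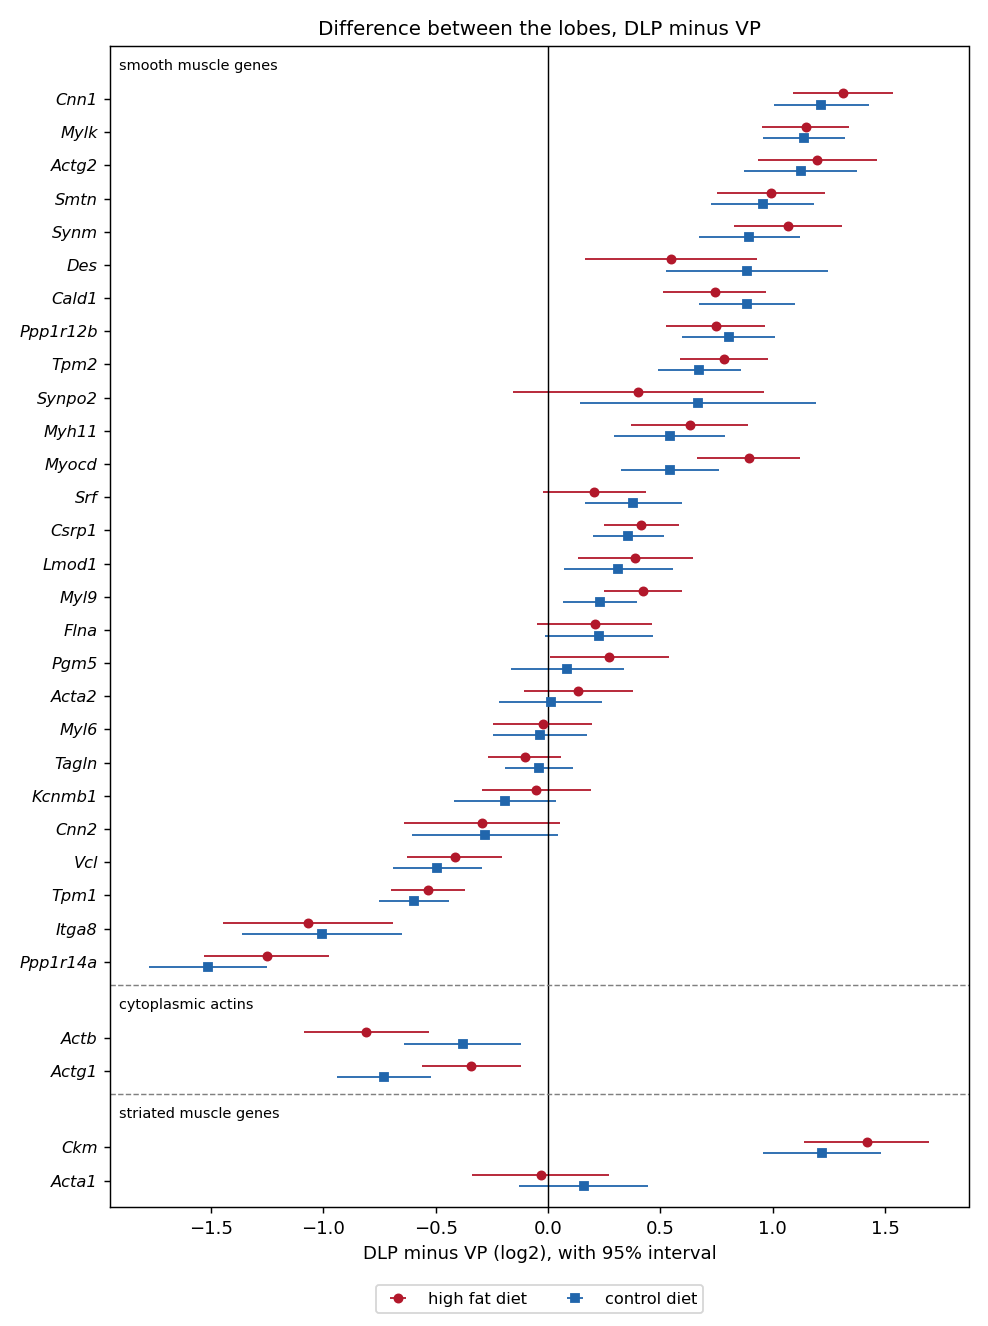
Difference between the lobes (DLP minus VP, log2, horizontal axis) for the 31 members tested, with 95% intervals from limma. Circles are the high fat diet and squares the control diet. From Cnn1 at 1.31 and 1.22 down to Ppp1r14a at -1.25 and -1.51, the order of the smooth muscle genes is much alike on both diets. Ckm lay below the array median on all VP arrays.

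Cnn1, Mylk and Actg2 were the smooth muscle members called higher in DLP by the largest difference on each diet. On the DLP arrays Cnn1 had log2 levels of 8.24, 8.15, 8.33 and 8.31 with HFD and of 7.92, 7.85, 7.92, 8.19 and 7.81 with control diet. On the VP arrays its levels were 6.89, 6.76, 7.23, 7.00 and 6.84 with HFD and 7.01, 6.74, 6.67, 6.42 and 6.76 with control diet. Every DLP array lay above every VP array of this gene, calponin 1, which binds actin and slows the myosin motor. The difference was 1.31 ± 0.11 (SE) on the HFD (2.48-fold, 95% interval from 1.09 to 1.54, limma's adjusted p = 3.13e-09) and 1.22 ± 0.10 (SE) on the control diet (2.32-fold, 95% interval from 1.01 to 1.43, adjusted p = 3.83e-09).

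Mylk levels (log2) in DLP were 8.85, 8.65, 8.79 and 8.85 on the HFD and 8.54, 8.59, 8.58, 8.66 and 8.58 on the control diet. In VP they were 7.83, 7.24, 7.63, 7.65 and 7.82 on the HFD and 7.52, 7.49, 7.36, 7.36 and 7.53 on the control diet. The lobes were again fully apart for this gene, the kinase that switches smooth muscle myosin on. DLP exceeded VP by 1.15 ± 0.09 (SE) on the HFD (95% interval from 0.95 to 1.34, limma's adjusted p = 3.05e-09) and by 1.14 ± 0.09 (SE) on the control diet (95% interval from 0.96 to 1.32, adjusted p = 1.36e-09).

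HFD DLP arrays gave Actg2 levels (log2) of 7.30, 7.18, 7.07 and 7.35, and control DLP arrays 6.88, 6.96, 6.81, 7.17 and 6.93. HFD VP arrays gave 5.95, 5.55, 6.32, 6.34 and 5.98, and control VP arrays 5.92, 5.82, 5.60, 5.81 and 5.97. The VP arrays were all lower for this gene, the enteric smooth muscle actin. The lobes differed by 1.20 ± 0.13 (SE) on the HFD (2.29-fold, 95% interval from 0.93 to 1.46, limma's adjusted p = 1.42e-07) and by 1.12 ± 0.12 (SE) on the control diet (2.18-fold, 95% interval from 0.87 to 1.37, adjusted p = 1.43e-07).

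Smoothelin, encoded by Smtn, marks contractile smooth muscle cells. The log2 level of Smtn was 4.76, 4.93, 4.85 and 4.85 in HFD DLP and 4.73, 4.71, 4.82, 4.79 and 4.99 in control DLP. It was 3.92, 3.82, 3.95, 3.52 and 4.08 in HFD VP and 4.16, 3.97, 3.95, 3.59 and 3.61 in control VP. No DLP array fell into the VP range. The difference was 0.99 on the HFD (limma's adjusted p = 5.02e-07) and 0.95 ± 0.11 (SE) on the control diet (95% interval from 0.73 to 1.18, adjusted p = 3.6e-07). Synemin, encoded by Synm, links intermediate filaments to the membrane. On the DLP arrays Synm had log2 levels of 7.47, 7.28, 7.29 and 7.17 with HFD and of 7.05, 7.05, 6.88, 7.15 and 7.00 with control diet. On the VP arrays its levels were 6.34, 5.97, 6.52, 6.29 and 6.05 with HFD and 6.39, 6.06, 5.80, 6.10 and 6.30 with control diet. The lobes did not overlap on either diet, and DLP exceeded VP by 1.07 ± 0.11 (SE) on the HFD (95% interval from 0.83 to 1.31, limma's adjusted p = 1.63e-07) and by 0.90 on the control diet (adjusted p = 7.43e-07).

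**Figure D2:**
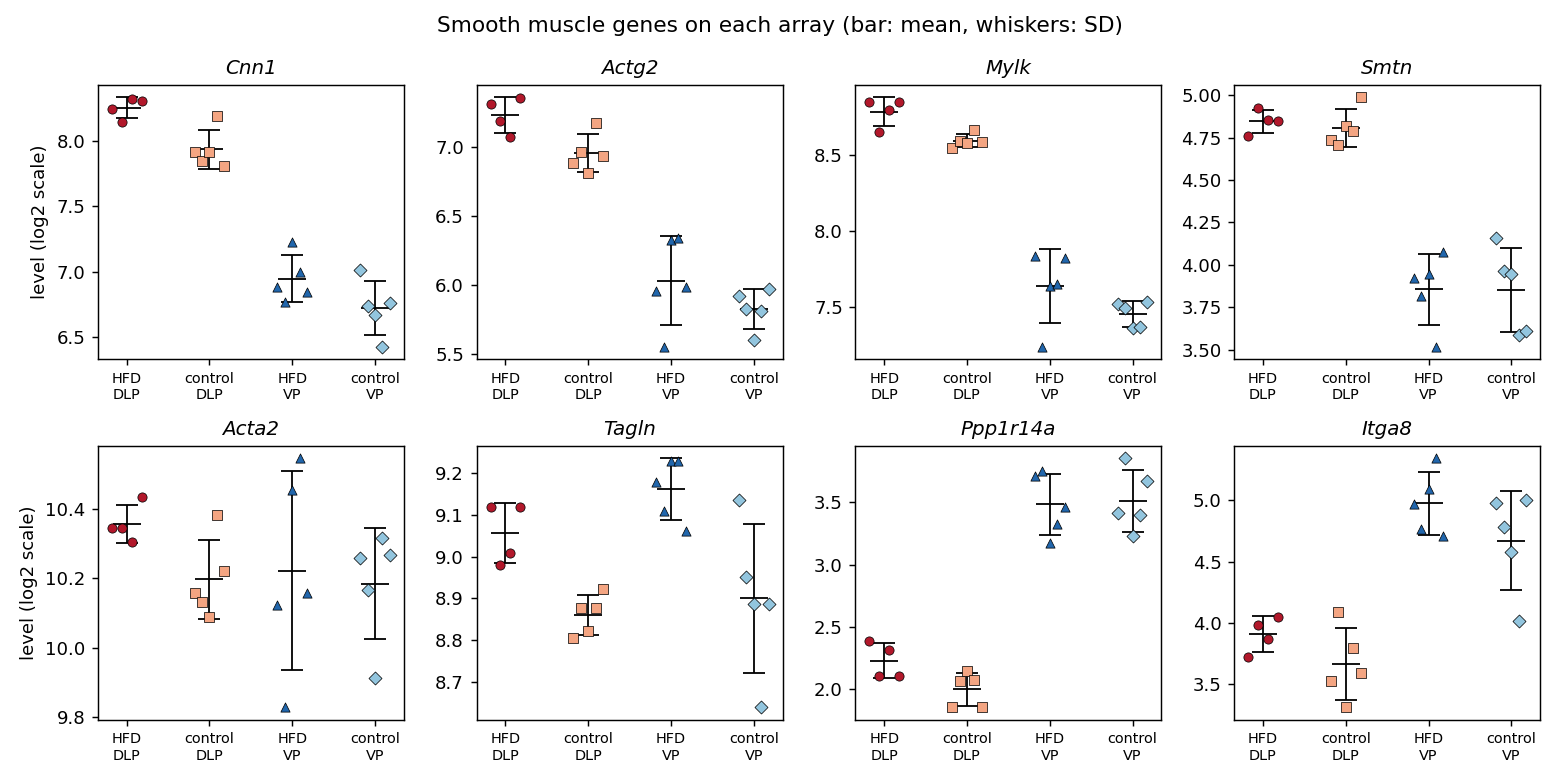
Levels (log2 scale, vertical axis, its range set for each gene) of 8 smooth muscle genes on each of the 19 arrays, by lobe and diet, with the group mean and SD. Cnn1, Actg2, Mylk and Smtn lie higher in DLP, Ppp1r14a and Itga8 lie lower in DLP, and Acta2 and Tagln overlap between the lobes.

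Several further members were called higher in DLP on both diets. Caldesmon (Cald1), which blocks myosin binding on actin, differed by 0.74 on the HFD and 0.89 on the control diet. Desmin (Des), the muscle intermediate filament, differed by 0.55 and 0.89 in the same order, and the tropomyosin Tpm2 by 0.78 and 0.67. Ppp1r12b, a targeting subunit of myosin phosphatase, was higher by 0.75 on the HFD and by 0.80 on the control diet. Smooth muscle myosin heavy chain (Myh11) was higher by 0.63 on the HFD and by 0.54 on the control diet, and its regulatory light chain (Myl9) by 0.42 and 0.23. The differences of Csrp1, a LIM protein, and of Lmod1, which nucleates actin filaments, ran from 0.31 to 0.42. Over all members called higher, the difference had a median of 0.76 on the HFD and 0.74 on the control diet, and reached at least 1 in 4 members on the HFD and in 3 on the control diet.

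Ppp1r14a ran the other way, with the largest difference of the 27 on the control diet. It encodes CPI-17, an inhibitor of myosin phosphatase. Ppp1r14a levels (log2) in DLP were 2.38, 2.11, 2.32 and 2.11 on the HFD and 1.85, 2.06, 2.15, 2.08 and 1.86 on the control diet. In VP they were 3.71, 3.75, 3.17, 3.32 and 3.46 on the HFD and 3.41, 3.85, 3.23, 3.39 and 3.67 on the control diet. Every DLP array lay below every VP array, near the array median. The difference was -1.25 ± 0.13 (SE) on the HFD (2.38-fold lower, 95% interval from -1.53 to -0.98, limma's adjusted p = 1.42e-07) and -1.51 ± 0.13 (SE) on the control diet (2.85-fold lower, 95% interval from -1.77 to -1.25, adjusted p = 3.92e-09).

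Itga8 encodes an integrin chain by which smooth muscle cells hold matrix. HFD DLP arrays gave Itga8 levels (log2) of 3.72, 3.99, 3.87 and 4.05, and control DLP arrays 3.52, 4.09, 3.31, 3.80 and 3.59. HFD VP arrays gave 4.97, 4.77, 5.09, 5.34 and 4.71, and control VP arrays 4.98, 4.78, 4.58, 4.01 and 5.00. The lobes were apart on the HFD, while on the control diet control DLP 2 lay above control VP 4. The difference was -1.07 ± 0.18 (SE) on the HFD (95% interval from -1.45 to -0.69, limma's adjusted p = 5.14e-05) and -1.01 ± 0.17 (SE) on the control diet (95% interval from -1.36 to -0.65, adjusted p = 4.94e-05).

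Vinculin, encoded by Vcl, ties actin to adhesion sites. The log2 level of Vcl was 6.37, 6.30, 6.34 and 6.52 in HFD DLP and 6.13, 6.33, 6.17, 6.38 and 6.28 in control DLP. It was 6.75, 6.42, 7.11, 6.90 and 6.79 in HFD VP and 6.63, 6.87, 6.82, 6.76 and 6.68 in control VP. The lobes were apart on the control diet, and on the HFD one VP array, HFD VP 2, fell within the DLP range. DLP was lower, with differences of -0.41 ± 0.10 (SE) on the HFD (95% interval from -0.63 to -0.20, limma's adjusted p = 0.00187) and -0.49 ± 0.10 (SE) on the control diet (95% interval from -0.69 to -0.29, adjusted p = 0.00021).

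Tpm1, a tropomyosin gene with many spliced isoforms, was also called lower, but its probe sets did not give the same direction. On the DLP arrays Tpm1 had log2 levels of 7.08, 7.15, 7.07 and 7.10 with HFD and of 6.93, 6.99, 6.94, 7.11 and 6.86 with control diet. On the VP arrays its levels were 7.55, 7.46, 7.84, 7.71 and 7.62 with HFD and 7.70, 7.71, 7.44, 7.45 and 7.52 with control diet. On this probe set, the one with the highest mean, no DLP array reached the VP range, and the difference was -0.53 ± 0.08 (SE) on the HFD (95% interval from -0.70 to -0.37, limma's adjusted p = 1.19e-05) and -0.60 ± 0.08 (SE) on the control diet (95% interval from -0.75 to -0.44, adjusted p = 1.34e-06). The 2 other probe sets differed by 0.20 and 0.70 on the HFD and by -0.04 and 0.57 on the control diet. With the mean of its probe sets Tpm1 was not called on either diet (0.12 on the HFD and -0.02 on the control diet). The array reports no single direction for this gene.

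Myocardin (Myocd), the coactivator of serum response factor in smooth and heart muscle, was higher in DLP. Myocd levels (log2) in DLP were 3.35, 3.21, 3.23 and 3.44 on the HFD and 2.97, 3.16, 2.96, 3.24 and 2.88 on the control diet. In VP they were 2.37, 2.33, 2.60, 2.62 and 2.15 on the HFD and 2.39, 2.57, 2.29, 2.55 and 2.69 on the control diet. The lobes did not overlap on either diet. The difference was 0.89 ± 0.11 (SE) on the HFD (1.86-fold, 95% interval from 0.66 to 1.12, limma's adjusted p = 1.15e-06) and 0.54 ± 0.10 (SE) on the control diet (1.46-fold, 95% interval from 0.32 to 0.76, adjusted p = 0.000196).

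The factor itself, Srf, differed less. HFD DLP arrays gave Srf levels (log2) of 3.69, 3.59, 3.87 and 3.69, and control DLP arrays 3.67, 3.83, 3.56, 3.86 and 3.67. HFD VP arrays gave 3.66, 3.29, 3.62, 3.71 and 3.24, and control VP arrays 3.56, 3.45, 3.18, 3.17 and 3.33. The DLP arrays lay in the upper part of the VP range or above it, and on the control diet the overlap was a single pair of nearly equal arrays. The difference was 0.21 ± 0.11 (SE) on the HFD (95% interval from -0.02 to 0.44, limma's adjusted p = 0.124) and 0.38 ± 0.10 (SE) on the control diet (95% interval from 0.16 to 0.60, adjusted p = 0.0043). A test of whether the lobe difference itself depended on diet gave -0.17 (95% interval from -0.49 to 0.14, limma's adjusted p = 0.795). Without control DLP 2, 4 and 5, the arrays high in nerve genes, the control diet difference was 0.28 with an adjusted p of 0.13. The other Srf probe set differed by 0.35 on the HFD and by 0.17 on the control diet. With the mean of probe sets Srf was called on the HFD too, at 0.28 (limma's adjusted p = 0.00641).

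Among the 27, 7 members were called on neither diet. Acta2, the smooth muscle alpha actin, differed on the probe set used by 0.14 on the HFD (95% interval from -0.11 to 0.38) and 0.01 on the control diet (from -0.22 to 0.24). Its other probe sets differed by 0.67 and 0.13 on the HFD and by 0.61 and 0.25 on the control diet. Transgelin (Tagln), an actin-binding protein, differed by -0.10 (from -0.27 to 0.06) and -0.04 (from -0.19 to 0.11) in the same order. The essential light chain Myl6, which is shared with non-muscle myosin, differed by -0.02 on the HFD and -0.04 on the control diet. Filamin A (Flna) and Pgm5, an adhesion-site protein, had positive differences from 0.09 to 0.27, and Cnn2, the calponin of many cell types, and Kcnmb1, a subunit of the calcium-activated potassium channel, had negative ones from -0.29 to -0.05. The intervals of Acta2 and Tagln exclude a lobe difference as large as that of Cnn1, Mylk or Actg2 on the probe sets used.

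Several genes had further probe sets past the filter, which test the direction on the same arrays. Among 23 such probe sets of 14 members, the difference had the sign of the probe set used in 20 on the HFD and in 19 on the control diet. By diet the sign was kept in 20 of the 23 in DLP and in 13 in VP, so the direction of small diet differences in VP often depended on the probe set. With the mean of probe sets, 26 of the 27 smooth muscle genes had a positive HFD minus control difference in DLP and 21 in VP. For Mylk the 3 probe sets differed by 0.72 to 1.42 on the control diet. For Acta2 the probe set used differed by 0.01 there, and the 2 others by 0.25 and 0.61. Csrp1 had probe sets at 0.36 and -0.10, Ppp1r12b at 0.80 and -0.01, and Actb at -0.38 and 0.22. Probe sets of smooth muscle, skeletal and cytoplasmic actin genes may share sequence with near-identical paralogs, so the values of Acta2, Actg2, Actb, Actg1 and Acta1 are uncertain as to which actin they count.

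**Figure D3:**
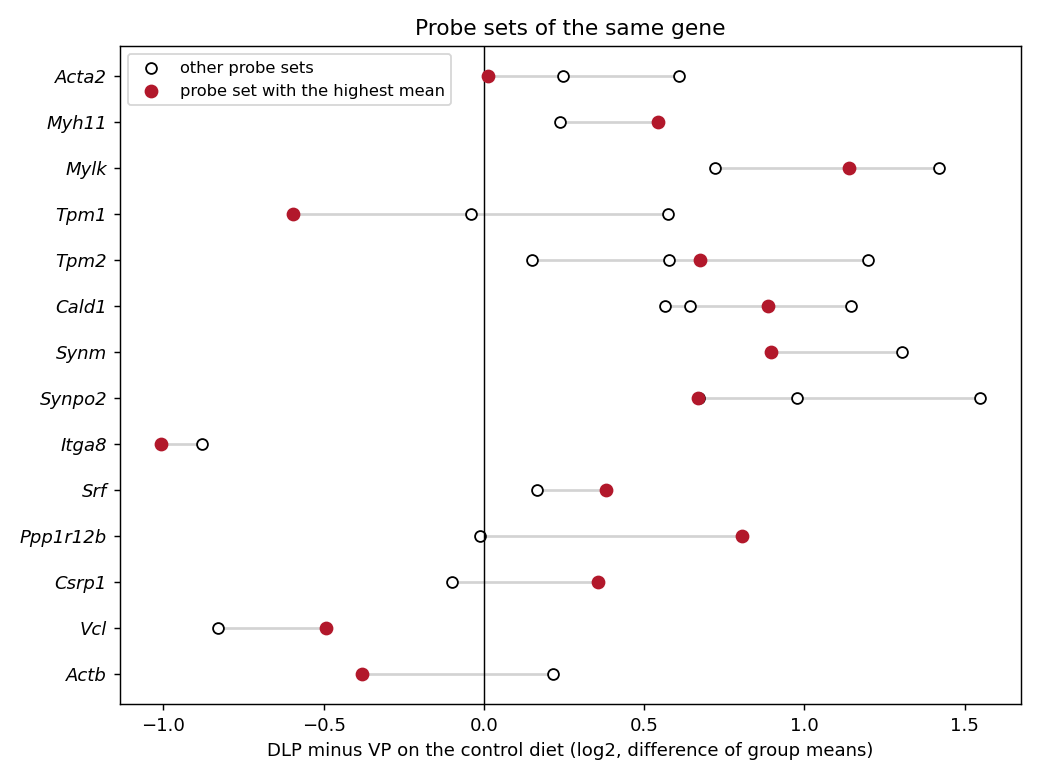
Difference between the lobes on the control diet (DLP minus VP, log2, horizontal axis) for each probe set past the filter, in the 14 members that have more than 1. Filled points are the probe sets used and open points the others. The probe sets of Tpm1 run from -0.60 to 0.57, and those of Mylk all lie above 0.

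Both cytoplasmic actins were lower in DLP on the probe sets used. The log2 level of Actb was 10.41, 10.31, 10.17 and 9.94 in HFD DLP and 10.32, 10.07, 10.03, 10.27 and 10.37 in control DLP. It was 11.01, 10.92, 11.44, 10.93 and 10.79 in HFD VP and 10.64, 10.34, 10.85, 10.75 and 10.37 in control VP. DLP lay below VP without overlap on the HFD and with overlap on the control diet. The difference was -0.81 ± 0.13 (SE) on the HFD (95% interval from -1.09 to -0.53, limma's adjusted p = 3.67e-05) and -0.38 ± 0.13 (SE) on the control diet (95% interval from -0.64 to -0.12, adjusted p = 0.0144). The other Actb probe set differed by 0.33 and 0.22, and with the mean of probe sets Actb was not called on either diet (-0.24 on the HFD and -0.08 on the control diet).

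On the DLP arrays Actg1 had log2 levels of 10.29, 10.30, 10.85 and 10.41 with HFD and of 10.01, 9.88, 9.77, 9.93 and 10.01 with control diet. On the VP arrays its levels were 10.90, 10.63, 10.97, 10.86 and 10.64 with HFD and 10.80, 10.68, 10.66, 10.52 and 10.59 with control diet. For Actg1 the lobes were apart on the control diet, and on the HFD a single DLP array, HFD DLP 3, reached into the VP range. The difference was -0.34 ± 0.11 (SE) on the HFD (95% interval from -0.56 to -0.12, limma's adjusted p = 0.0103) and -0.73 ± 0.10 (SE) on the control diet (95% interval from -0.94 to -0.52, adjusted p = 3.58e-06). A single probe set stands for this gene.

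Of the striated muscle genes, Ckm, the muscle creatine kinase that buffers energy in skeletal fibres, was higher in DLP. Ckm levels (log2) in DLP were 2.91, 2.81, 2.83 and 2.48 on the HFD and 2.79, 2.59, 2.55, 2.42 and 2.46 on the control diet. In VP they were 1.56, 1.26, 1.34, 1.36 and 1.16 on the HFD and 1.08, 1.44, 1.59, 1.03 and 1.58 on the control diet. All 9 DLP arrays lay above the array median and all 10 VP arrays below it. The difference was 1.42 on the HFD and 1.22 on the control diet. Ckm passed the filter through its DLP arrays alone and all its VP levels lay below the array median, so the direction was fixed by the filter and the sizes are given as a description, with no test.

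Acta1, the skeletal alpha actin, lay well above the array median everywhere. HFD DLP arrays gave Acta1 levels (log2) of 6.62, 6.20, 6.10 and 6.34, and control DLP arrays 6.39, 6.35, 6.08, 5.97 and 6.14. HFD VP arrays gave 6.59, 6.06, 6.77, 6.11 and 6.21, and control VP arrays 6.35, 6.07, 5.83, 5.87 and 6.03. The lobes overlapped on both diets. The difference was -0.03 ± 0.15 (SE) on the HFD (95% interval from -0.34 to 0.27, limma's adjusted p = 0.869) and 0.16 ± 0.14 (SE) on the control diet (95% interval from -0.13 to 0.45, adjusted p = 0.342).

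The other 4 striated genes did not pass the filter. Myh4, a fast myosin heavy chain, Tnnt3, the fast troponin T, and Actn2, the sarcomeric actinin, lay below the array median on all 19 arrays. Myl1, the fast essential light chain, had levels of 1.66, 1.52, 1.13 and 1.73 on HFD DLP arrays, 1.54, 2.56, 1.43, 2.42 and 2.63 on control DLP arrays, 1.54, 1.11, 1.15, 0.99 and 1.11 on HFD VP arrays and 1.13, 1.05, 0.34, 1.37 and 1.04 on control VP arrays. The 3 arrays above the median were control DLP 2, 4 and 5, which also held the most nerve gene signal, and the part of this in the Myl1 levels was not tested. DLP minus VP was 1.13 for Myl1 on the control diet and 0.33 on the HFD, given with no test, since the gene was singled out after its values were seen and all its VP levels lay below the median.

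**Figure D4:**
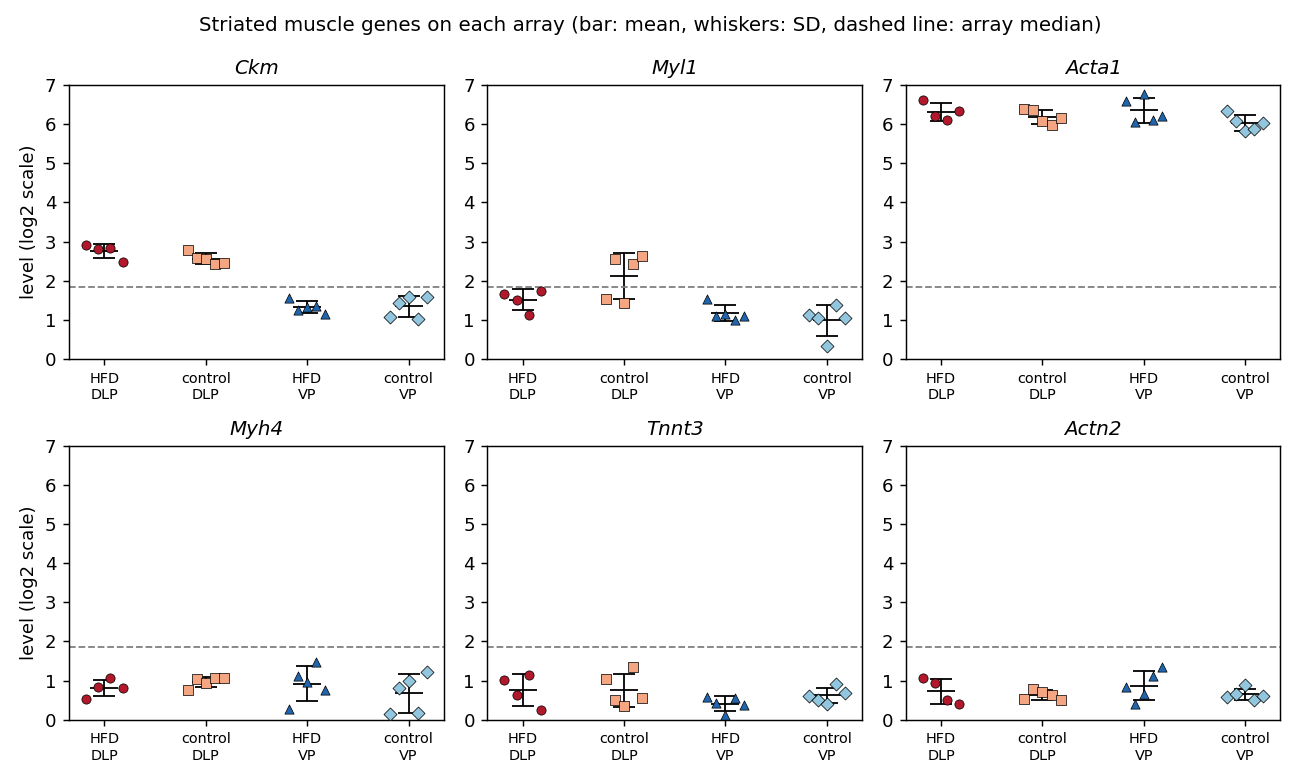
Levels (log2 scale, vertical axis) of the 6 striated muscle genes on each of the 19 arrays, by lobe and diet, with the group mean and SD. The dashed line is the array median at 1.85. Ckm crosses it in DLP alone, Myl1 on 3 control DLP arrays, and Myh4, Tnnt3 and Actn2 on none.

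Markers of other cells also differed between the lobes. Of the 7 nerve genes tested, 6 lay above the array median on DLP arrays alone, so that the filter fixed their direction. The median DLP minus VP difference of the 7 was 1.07 on the HFD and 2.09 on the control diet, as a description. On the control diet, DLP was higher in 4 of 4 basal epithelial genes (median 0.66), 3 of 6 pericyte genes (0.33) and 1 of 6 fibroblast genes (-0.07), and lower in 3 of 5 luminal epithelial genes (-0.40, with 1 higher) and 2 of 4 macrophage genes (-0.61), while 0 of 5 endothelial genes passed (0.14). On the HFD the basal median was 0.57 with 2 of 4 higher, and the pericyte median 0.30 with 3 of 6 higher. The fibroblast median there was 0.02 and the endothelial median 0.16, with 1 of 6 and 1 of 5 higher. Luminal genes had a median of -0.25 with 3 of 5 lower and 1 higher, and macrophage genes -0.45 with 2 of 4 lower. Of 5 adipocyte genes 1 was tested, Fabp4, which was called lower in DLP on both diets (-0.54 on the HFD and -0.78 on the control diet). Over all genes tested, 28.2% were higher and 26.8% lower on the control diet, and 26.8% and 26.1% on the HFD. The 3′ minus 5′ difference of the Gapdh control probe sets, a sign of RNA quality, ran from -0.54 to -0.35 on HFD DLP and from -0.49 to -0.36 on control DLP arrays, against -0.41 to -0.19 on HFD VP and -0.26 to -0.03 on control VP arrays. The same difference of the Actb control probe sets overlapped between the lobes. It ran from 1.35 to 1.52 on HFD DLP, 1.403 to 1.745 on control DLP, 1.17 to 1.64 on HFD VP and 1.28 to 1.51 on control VP arrays. The part of these markers and of RNA quality in the lobe differences was not tested. Without control DLP 2, 4 and 5, which leaves 2 control DLP arrays, 16 of 27 smooth muscle genes were called on the control diet. They were 12 higher and 4 lower, where 40.6% of all genes were called in either direction. Without HFD VP 2 and HFD DLP 1 the count on the HFD was 18, with 13 higher and 5 lower, against 45.7% of all genes.

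Between the diets no smooth muscle gene passed the threshold in either lobe. In VP 0 of the 27 were called between HFD and control at limma's adjusted p under 0.05, where 130 genes, or 1.11% of all tested, were (0.529% higher and 0.580% lower). The number over all genes depended on the fit. It was 0 with the 2 VP groups fitted alone, 21 with 1 weight per lobe and 209 with a filter at the 75th percentile. An unadjusted p under 0.05 was reached by 6 of the 27, against 15.2% of all genes. The HFD minus control difference was positive in 22 of the 27, against 52.2% of all genes, with a median of 0.13 against 0.01 for all genes, and no member had groups that did not overlap (1.38% of all genes higher and 1.19% lower). Without control VP 4 and HFD VP 3, the arrays with the lowest and the highest smooth muscle average in VP, 18 were positive and the median was 0.02. As these arrays are the extremes of the same average, leaving them out lowers the average difference by construction and is no check of it.

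The members with the smallest p in VP were Tagln, Des, Cald1 and Ppp1r12b. Tagln had levels of 9.18, 9.11, 9.23, 9.23 and 9.06 on HFD VP arrays and 9.14, 8.95, 8.89, 8.64 and 8.89 on control VP arrays. All HFD arrays lay above 4 of the 5 control arrays, and control VP 1 was higher than HFD VP 2 and 5. The difference was 0.26 ± 0.07 (SE) (1.2-fold, 95% interval from 0.11 to 0.41, limma's adjusted p = 0.0827). Without control VP 1 it was 0.32 and passed, with an adjusted p of 0.033. That was the 1 fit with 1 array left out in which Tagln passed, and limma's adjusted p ran up to 0.144 in the others.

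Des had levels of 5.76, 5.13, 6.37, 6.16 and 5.49 on HFD VP arrays, against 5.47, 5.15, 5.19, 4.90 and 5.15 on control VP arrays. HFD VP 2, the array highest in seminal vesicle genes, lay inside the control range and the other 4 HFD arrays above it. The difference was 0.61 ± 0.17 (SE) (1.53-fold, 95% interval from 0.25 to 0.97, limma's adjusted p = 0.0854). Without HFD VP 2 it was 0.78 and passed, with an adjusted p of 0.024. Des passed in no other fit with 1 array left out, where limma's adjusted p ran up to 0.173.

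Cald1 had levels of 7.88, 7.54, 8.12, 8.17 and 7.89 on HFD VP arrays and 7.96, 7.57, 7.51, 7.67 and 7.56 on control VP arrays. The groups overlapped, and the difference was 0.27 ± 0.10 (SE) (95% interval from 0.05 to 0.48, limma's adjusted p = 0.207). Ppp1r12b had 4.33, 4.30, 4.65, 4.48 and 4.43 on HFD VP arrays and 4.61, 4.07, 4.15, 4.24 and 3.99 on control VP arrays. Here 1 control array, control VP 1, was nearly as high as the highest HFD array, and the difference was 0.23 ± 0.10 (SE) (95% interval from 0.02 to 0.44, limma's adjusted p = 0.275). The other Ppp1r12b probe set past the filter went the other way in VP, at -0.08. For Cald1 the other probe sets past it differed by 0.02, 0.25 and 0.08.

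In DLP 0 of the 11728 genes passed limma's adjusted threshold (0%), and the smallest adjusted p of a smooth muscle gene was 0.74. The HFD minus control difference was positive in 25 of 27 members, against 53.7% of all genes, with a median of 0.19 against 0.01. For 7 members limma gave an unadjusted p under 0.05, against 5.64% of all genes. HFD DLP arrays lay above all control DLP arrays for 6 members (22.2% of the 27, against 2.02% of all genes), namely Myh11, Tagln, Myl9, Synm, Pgm5 and Csrp1, and below them for none (1.13% of all genes). With groups of 4 and 5, such a separation has an exact two-sided permutation p of 0.016, the lowest value possible.

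The smallest p in DLP belonged to Pgm5, Cnn1, Csrp1 and Tagln. Pgm5 had levels of 5.69, 5.81, 5.64 and 6.17 on HFD DLP arrays, against 5.38, 5.61, 5.44, 5.47 and 5.34 on control DLP arrays. HFD DLP 4 was well above the rest. The difference was 0.38 ± 0.13 (SE) (1.3-fold, 95% interval from 0.12 to 0.65, limma's adjusted p = 0.742).

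For Cnn1, with levels given above, control DLP 4 reached above HFD DLP 2, and the difference was 0.32 ± 0.11 (SE) (95% interval from 0.10 to 0.54, limma's adjusted p = 0.742). Csrp1 had 8.73, 8.78, 8.62 and 8.63 on HFD DLP arrays and 8.44, 8.45, 8.43, 8.58 and 8.44 on control DLP arrays. The groups were apart by a small step, and the difference was 0.22 ± 0.08 (SE) (95% interval from 0.05 to 0.39, adjusted p = 0.817). Tagln had 9.12, 8.98, 9.01 and 9.12 on HFD DLP arrays and 8.80, 8.88, 8.82, 8.88 and 8.92 on control DLP arrays, again without overlap, and differed by 0.20 ± 0.08 (SE) (95% interval from 0.03 to 0.36, adjusted p = 0.817).

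Marker genes were read on the same arrays. In DLP, HFD minus control medians were -0.05 over 6 pericyte genes, -0.09 over 6 fibroblast genes, 0.10 over 5 endothelial genes, 0.14 over 5 luminal epithelial genes, -0.08 over 4 basal epithelial genes, -0.09 over 4 macrophage genes, -0.99 over 7 nerve genes and 0.64 over 2 seminal vesicle genes, none of which was called. In VP they were 0.03 over the pericyte genes, -0.20 over the fibroblast genes, -0.05 over the endothelial genes, 0.06 over the luminal and 0.01 over the basal epithelial genes, -0.08 over the macrophage genes, 0.03 over the nerve genes and 1.25 over the seminal vesicle genes, again with none called. The adipocyte gene Fabp4 differed by 0.01 in DLP and by -0.23 in VP and was called in neither. The seminal vesicle genes averaged -1.01 to 4.14 on HFD VP arrays and -1.02 to -0.03 on control VP arrays. The Gapdh 3′ minus 5′ differences given above ran lower on HFD VP than on control VP arrays, with overlap. For Actb the control VP range lay within the HFD VP range. The nerve genes averaged 0.08 to 0.64 on HFD DLP arrays and -0.13 to 2.84 on control DLP arrays. In DLP no gene of any kind was called. There limma's unadjusted p was under 0.05 for 3 of 7 nerve, 2 of 5 luminal, 1 of 5 endothelial and 1 of 6 fibroblast genes. Among all genes in DLP this share was 5.64%, and none of the pericyte, basal, macrophage or seminal vesicle genes reached it. In VP 2 of 6 fibroblast genes and 1 of 5 luminal genes reached it, against 15.2% of all genes. The part of these markers and of RNA quality in the smooth muscle values was not tested. Without control DLP 2, 4 and 5, 26 of the 27 members were positive, with a median of 0.23, but only 2 control arrays remain. Without HFD VP 2 and HFD DLP 1, 25 of 27 were positive in DLP with a median of 0.17.

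**Figure D5:**
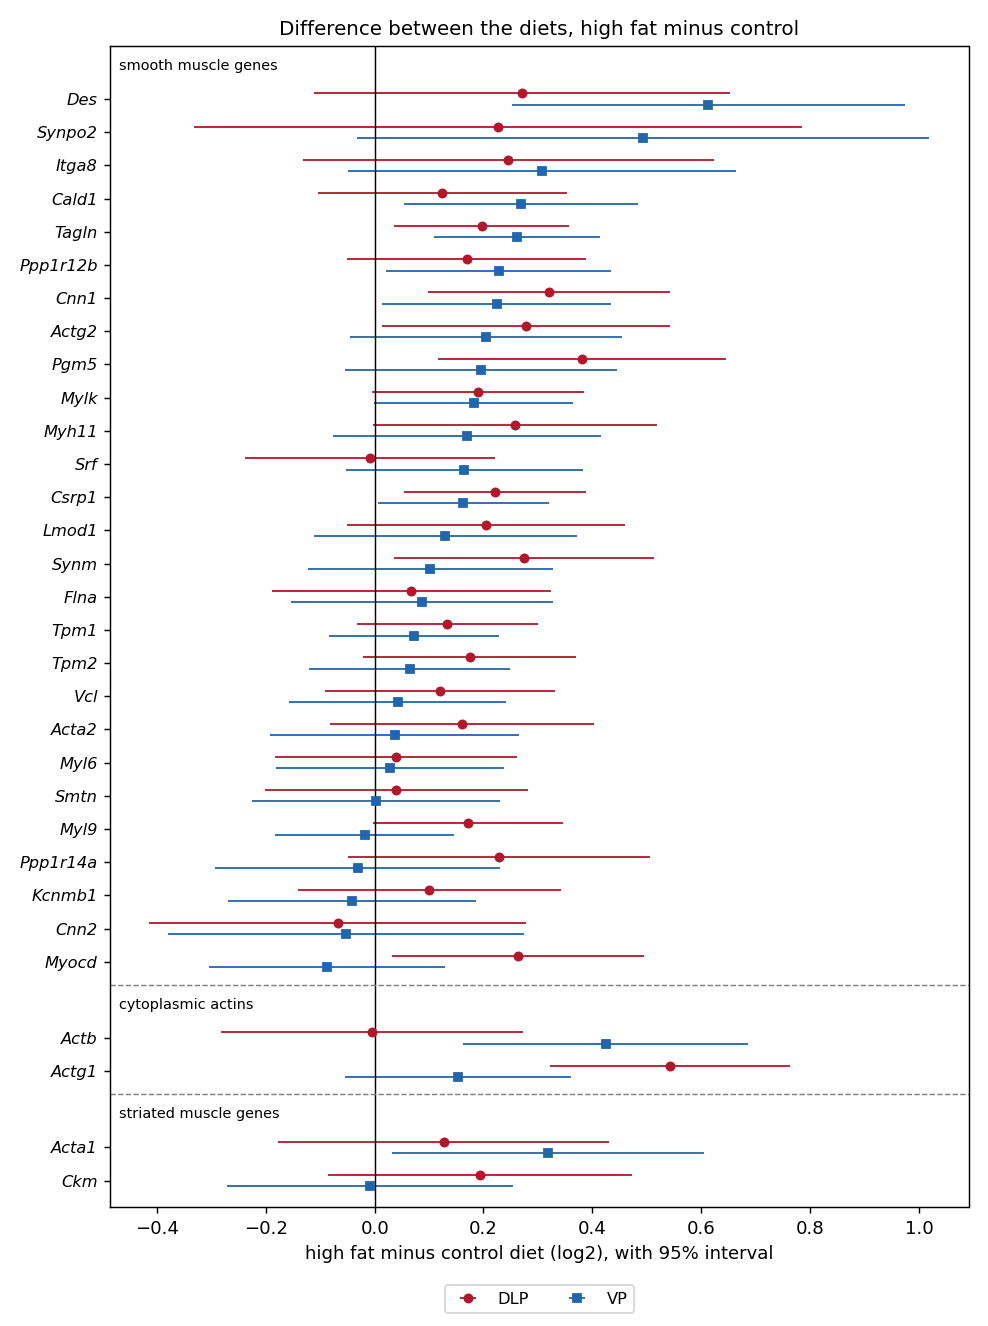
Difference between the diets (high fat minus control, log2, horizontal axis) for the 31 members tested, with 95% intervals from limma. Circles are DLP and squares VP. Most smooth muscle genes lie to the right of 0 in both lobes, with medians of 0.19 in DLP and 0.13 in VP, and no member passed the threshold over all genes.

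The regulators did not pass by diet either. Myocd differed by 0.26 ± 0.11 (SE) in DLP (95% interval from 0.03 to 0.49, limma's adjusted p = 0.837) and by -0.09 ± 0.10 (SE) in VP (95% interval from -0.31 to 0.13, adjusted p = 0.746). Srf differed by -0.01 ± 0.11 (SE) in DLP (from -0.24 to 0.22, adjusted p = 0.997) and by 0.16 ± 0.10 (SE) in VP (from -0.05 to 0.38, adjusted p = 0.474). On the probe sets used, the cytoplasmic actins had larger values in 1 lobe each. Actb differed by 0.42 ± 0.13 (SE) in VP (95% interval from 0.16 to 0.69, limma's adjusted p = 0.103) and by -0.00 ± 0.13 (SE) in DLP (adjusted p = 0.998). Actg1 differed by 0.54 ± 0.11 (SE) in DLP, where HFD arrays lay above all control arrays (95% interval from 0.32 to 0.76, adjusted p = 0.204), and by 0.15 ± 0.10 (SE) in VP (adjusted p = 0.49). The other Actb probe set differed by 0.29 in DLP and 0.17 in VP, so for Actb which lobe had the larger value depended on the probe set.

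The Actg1 difference in DLP passed when arrays were weighted, with limma's adjusted p of 0.036 with array weights and 0.038 with 1 weight per lobe. Of the striated genes, Acta1 differed by 0.13 ± 0.15 (SE) in DLP (from -0.18 to 0.43, limma's adjusted p = 0.996) and by 0.32 ± 0.14 (SE) in VP (from 0.03 to 0.61, adjusted p = 0.27). Ckm differed by 0.19 ± 0.13 (SE) in DLP (from -0.09 to 0.47, adjusted p = 0.98) and by -0.01 in VP, where its levels lay below the array median on both diets.

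No member's diet difference was shown to depend on the lobe. The test of DLP diet change minus VP diet change called 1 gene of all tested (0.00853%), and none of the 31 members. Among the 27 smooth muscle genes 18 were positive (49.9% of all genes) and 1, Myocd, had an unadjusted p under 0.05 (8.45%). The count of positive members was 11 without HFD VP 2 and HFD DLP 1, and 14 to 23 with 1 array left out, so that the majority turned with the arrays used. The smooth muscle members with the smallest p were Myocd at 0.35 ± 0.15 (SE) (95% interval from 0.03 to 0.67, limma's adjusted p = 0.539), Myl9 at 0.19 ± 0.11 (SE) (from -0.05 to 0.43, adjusted p = 0.686), Ppp1r14a at 0.26 ± 0.18 (SE) (from -0.12 to 0.64, adjusted p = 0.734) and Des at -0.34 ± 0.25 (SE) (from -0.87 to 0.18, adjusted p = 0.743). Myl9 levels were 8.84, 8.74, 8.69 and 8.80 on HFD DLP arrays and 8.65, 8.57, 8.55, 8.66 and 8.56 on control DLP arrays. In VP they were 8.36, 8.13, 8.56, 8.26 and 8.42 on HFD arrays and 8.56, 8.25, 8.18, 8.39 and 8.44 on control arrays. The diets were apart for Myl9 in DLP and overlapped in VP. Des levels were 6.16, 6.24, 6.36 and 6.55 on HFD DLP arrays and 5.80, 6.12, 6.14, 6.26 and 5.98 on control DLP arrays, which overlapped, and its VP levels are given above.

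For Actb the difference of diet changes was -0.43 ± 0.18 (SE) (from -0.81 to -0.05, limma's adjusted p = 0.532) on the probe set used, and for Actg1 it was 0.39 ± 0.14 (SE) (from 0.09 to 0.69, adjusted p = 0.483). For Acta1 it was -0.19 ± 0.20 (SE) (from -0.61 to 0.23, adjusted p = 0.839) and for Ckm 0.20 ± 0.18 (SE) (from -0.18 to 0.58, adjusted p = 0.803). The 2 diet comparisons shared no arrays, but DLP and VP arrays of a diet may come from the same mice. They are therefore not shown to be independent. Among the 27 smooth muscle genes 21 were positive in both lobes, or 77.8%, against 29.6% of all genes, and the sign was the same in 22 (81.5%, against 53.3%).

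Further genes of smooth muscle, a list of 77 of which 61 were tested, were called in both directions between the lobes. On the HFD 25 of the 61 were higher (41.0%) and 17 lower (27.9%) in DLP, with a median of 0.15, where 26.8% and 26.1% of all genes were. On the control diet 23 were higher (37.7%) and 15 lower (24.6%), with a median of 0.10, where the shares of all genes were 28.2% and 26.8%. Of the 61, 51 lay above the array median on all 19 arrays and 3 on DLP arrays alone. Non-muscle myosin heavy chain Myh10 had the largest difference, -2.42 on the HFD and -2.49 on the control diet, with limma's adjusted p of 5.11e-12 and 1.23e-12. Brain-type creatine kinase Ckb was higher by 1.83 and 1.73 in the same order, the small heat shock protein Hspb6, which relaxes smooth muscle, by 1.63 and 1.50, and Filip1l was lower, at -1.42 and -1.31.

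By diet, the transcription factor Mef2d was the single gene of that list that passed in VP, where HFD exceeded control by 0.28 ± 0.06 (SE) (95% interval from 0.15 to 0.41, limma's adjusted p = 0.0339). Its levels were 4.85, 4.77, 4.91, 4.99 and 4.86 on HFD VP arrays, all above the 4.59, 4.62, 4.47, 4.69 and 4.62 on control VP arrays. With the 2 VP groups fitted alone 0 of 11728 genes passed, so the call of Mef2d depended on the fit. The share of the list called in VP was 1.64%, against 1.11% of all genes. In VP limma's unadjusted p was under 0.05 for 7 of the 61 (11.5%), against 15.2% of all genes. Rock1, a kinase that inhibits myosin phosphatase, differed by -0.29 in VP (limma's adjusted p = 0.0872). In DLP none of the 61 passed, as for all genes, and 4 of them (6.56%) had an unadjusted p under 0.05, against 5.64% of all genes, so their share was near that of all genes. There the smallest p values belonged to the non-muscle myosin Myh9 (a difference of 0.20), Hspb6 (0.23), the endothelin receptor Ednrb (-0.44) and Foxf1 (0.28).

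Of 34 further genes of striated muscle, 11 were tested. In DLP 4 were higher and 4 lower than in VP on the HFD, and 5 higher and 4 lower on the control diet, where 26.8% and 26.1% of all genes on the HFD and 28.2% and 26.8% on the control diet were. Of these 11 genes 3 lay above the array median on all arrays, so some entered through the arrays where they were high and the counts are a description. Troponin C of fast fibres (Tnnc2), above the median on all 19 arrays, was higher by 0.97 on the HFD and 0.69 on the control diet, both past limma's adjusted threshold. Myosin-binding protein Mybpc1, above the median on 9 DLP and 5 VP arrays, differed by 1.20 and 1.02 in the same order. The slow troponin T Tnnt1, above it on 2 DLP and 10 VP arrays, differed by -1.80 and -1.96, and the myosin heavy chain Myh2, above it on the 10 VP arrays alone, by -1.06 and -1.44, so the filter fixed the direction of Myh2 and these sizes are a description. None of the 11 passed by diet in either lobe, with 1 (9.09%) at an unadjusted p under 0.05 in each, against 5.64% of all genes in DLP and 15.2% in VP.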

How the data were processed

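RNA of 19 prostate samples was measured on Affymetrix 3′ arrays. The deposited values were taken as log10 values. Per the submitters' processing notes MAS5 was used, and the authors' later steps and the log base are not given in the sources used here. Base 10 was inferred from the hybridization controls bioB, bioC, bioD and cre, with an offset of 1 in the logarithm. Sorted values were identical on all 19 arrays, with a median of 0.555 and a highest value of 3.99, so that a shift common to most genes cannot be seen. With so few arrays, precision is limited by their number.

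Apart from 64 controls, the 45101 probe sets divided into 34945 with 1 symbol in the platform annotation, 932 with several and 9160 with none. Gene identifiers served to update 34741 symbols. Values were converted to log2. Probe sets above their array's median on at least 4 arrays were kept, and each gene was represented by its brightest probe set (highest mean over the 19 arrays). limma 3.58.1 in R 4.3.3 (lmFit, eBayes with a mean-dependent prior) fitted 4 group means to 19 arrays with 15 residual degrees of freedom. P-values are two-sided, and adjusted ones are Benjamini-Hochberg values over all 11728 genes at a threshold of 0.05. The fit was tested on simulated data. Intervals are 95% intervals. All 4 contrasts and their difference share 1 spread per gene.

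The members and lists were chosen with earlier results of these data known, so counts over them are given as descriptions beside the same counts over all genes. Values on every array were given for the 4 smooth muscle members called with the largest difference in each direction between lobes, for the 4 with the smallest p by diet and in the difference of diet changes, for Actb, Actg1, Myocd and Srf, and for striated members past the filter. No test is given between lobes for genes that passed the filter through 1 lobe alone, such as Ckm. Myl1, which did not pass it, was added after its values were seen. Promoter windows are RefSeq's. Alternatives covered the offset, filter, probe set choice, prior, array weights, scaling, replicate number as a block, the groups of a contrast fitted alone, and arrays left out. Arrays were not treated as pairs, since the labels do not say whether equal replicate numbers of both lobes are 1 mouse. Within a diet, deviations of DLP and VP arrays with equal numbers had correlations from -0.066 to 0.189, which does not settle it. Between the diets of 1 lobe, which are different mice, equal numbers gave -0.15 to 0.46. Leaving out the arrays high in seminal vesicle or nerve genes was added after seeing the data.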

Additional observations from a re-analysis of the deposited data

Results flagged for a closer look

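Among 92 groups of 4 or 5 arrays checked for the named members, 3 held an array far from its group, where chance gives about 1 in 20. Ppp1r12b, the myosin phosphatase subunit, was 4.95 on HFD DLP 3, while the other 3 HFD DLP arrays lay between 5.25 and 5.27. Csrp1, the LIM protein, was 8.31 on control VP 1, where the other 4 control VP arrays lay between 8.02 and 8.10. Csrp1 was also 8.58 on control DLP 4, with the other 4 control DLP arrays between 8.43 and 8.45. In each case the rest of the group was close together.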

How the results depend on the processing

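Of the smooth muscle genes, 16 to 20 were called between the lobes on the HFD and 16 to 20 on the control diet under all alternatives other than leaving out 1 array, which gave 17 to 20 and 18 to 21. Of all genes, 34.8% to 61.8% were called on the HFD and 37.3% to 62.6% on the control diet under the same alternatives. With 1 array left out these shares were 48.1% to 54.7% and 52.0% to 56.1%. By diet the count of smooth muscle genes in VP was 0 except without HFD VP 2 and HFD DLP 1, where it was 1 (Des, 0.78). It ran from 0 to 1 with 1 array left out, and in DLP it was 0 throughout. Of all genes, 0% to 2.78% were called by diet in VP under the alternatives, and 0.597% to 1.26% with 1 array left out. Of the cytoplasmic actins, 1 was called by diet in DLP with array weights and 1 with 1 weight per lobe. Between the lobes 1 was called with the mean of probe sets on each diet, and 1 on the control diet without control DLP 2, 4 and 5. Of the striated genes, 2 were called between the lobes on the control diet with no filter (Ckm and Myl1), and 0 on either diet with a filter at the 75th percentile, which leaves Ckm out. An offset of 16 brought the median lobe difference of the smooth muscle genes to 0.25 on the HFD and 0.20 on the control diet. With the mean of probe sets the sign turned for Tpm1 between lobes on the HFD (0.1219), for Actb (0.1432) and Srf (0.09881) by diet in DLP, and for the difference of diet changes of Srf (0.00599). Actb in DLP was 0.01368 with array weights and 0.03452 without control DLP 2, 4 and 5, where Srf was 0.09492. Ckm by diet in VP was 0.01085 without HFD VP 2 and HFD DLP 1, and Acta1 between lobes on the HFD was 0.0725 without control VP 4 and HFD VP 3. With 1 array left out, these small values lay on both sides of 0: Ckm by diet in VP from -0.0859 to 0.05391, Actb and Srf by diet in DLP from -0.07284 to 0.08353 and from -0.06176 to 0.03315, and Acta1 between lobes on the HFD from -0.1333 to 0.0725. The causes were not tested. With the replicate block, as a fixed term or as diet and number in a random block (correlation 0.0443), none of 77 results changed its call or direction, and the counts between the lobes were 18 on the HFD and 20 on the control diet. VP arrays vary more than DLP arrays, at a weight of 1.84 for DLP over VP, and the shared spread does not follow that. Ckm and Myl1 in VP lay below the array median, so their calls between lobes are no test, and the offset understates differences of low levels.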
